A study of Mus musculus with 9 samples.

Results

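The visual cycle genes of the retinal pigment epithelium were examined in RNA from mouse retina. The set held 7 genes (Rpe65, Lrat, Rdh5, Rgr, Rrh, Stra6 and Ttr), chosen by symbol among 25108 entries of a whole-retina expression table, and each symbol matched an entry. All animals were C57BL/6 mice at postnatal day 17, with 3 libraries in each of 3 groups. The groups were IL-19 knockout mice with oxygen-induced retinopathy (OIR KO), wild-type mice with oxygen-induced retinopathy (OIR WT) and wild-type mice under room air (RA WT). Oxygen-induced retinopathy exposes young pups to high oxygen and then to room air, after which the poorly perfused inner retina is hypoxic and grows abnormal vessels. IL-19 is a cytokine of the interleukin-10 family. The labels describe neither the knockout allele nor the number of animals behind a library, so the p-values reflect only how far these samples differ, which may be technical variation. Knockout mice in room air were not analysed here, so OIR KO differs from RA WT in genotype and treatment together.

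The visual cycle returns bleached retinal to its light-sensitive cis form, so that rods and cones can form visual pigment again. Most of it takes place in the pigment epithelium, a pigmented cell layer behind the photoreceptors that is usually left behind when a retina is dissected. LRAT turns retinol into retinyl esters, RPE65 isomerises these esters to the cis alcohol, and RDH5 oxidises that alcohol to cis retinal. RGR and RRH (peropsin) are opsins that bind all-trans retinal, and mouse RGR is found in both pigment epithelium and Müller glia, the supporting glia that span the retina. STRA6 is the receptor that takes up retinol from retinol-binding protein, and TTR (transthyretin) carries that protein in blood and is secreted by pigment epithelium and choroid plexus.

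RefSeq (GRCm38.p6) gave 9 promoter windows for 6 of the 7 genes, each from 250 bases before to 50 bases after a transcription start. They were searched on both strands for TAATCC, the core recognised by the homeodomain factors OTX2 and CRX, for CATGTG, an E-box of the kind bound by MITF, and for CACGTG, which reads the same on both strands. OTX2 and MITF are known regulators of pigment epithelium genes, and MITF and other E-box factors also recognise CACGTG. Of the 9 windows, 2 held TAATCC and the same 2, those of Rpe65 and Rgr, held CATGTG, while 0 held CACGTG. Among all 32851 RefSeq windows of this length, 7.1% held TAATCC, 14.2% held CATGTG and 7.2% held CACGTG. The Rpe65 and Rgr windows are shown because they are the ones with both motifs. Capitals mark the motifs, which read as GGATTA or CACATG where they lie on the other strand.
Rpe65, chr3:159598931-159599230, plus strand: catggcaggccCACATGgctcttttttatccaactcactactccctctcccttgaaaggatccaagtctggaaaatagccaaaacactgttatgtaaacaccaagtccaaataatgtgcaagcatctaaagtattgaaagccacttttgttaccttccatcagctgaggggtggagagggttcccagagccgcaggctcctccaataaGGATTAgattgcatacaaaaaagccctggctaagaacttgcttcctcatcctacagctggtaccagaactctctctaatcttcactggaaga
Rgr, chr14:37048965-37049264, minus strand: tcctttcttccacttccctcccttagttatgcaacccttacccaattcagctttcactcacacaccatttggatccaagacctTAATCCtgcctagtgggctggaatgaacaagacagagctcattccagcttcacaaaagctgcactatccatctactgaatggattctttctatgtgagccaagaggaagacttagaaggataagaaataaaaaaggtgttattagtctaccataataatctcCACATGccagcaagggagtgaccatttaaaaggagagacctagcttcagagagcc
The OTX2/CRX core began 42 bases before the start in Rpe65 and 167 bases before it in Rgr. The E-box began 239 bases before the start in Rpe65 and 5 bases before it in Rgr. The Rgr window lies wholly before the gene as GENCODE places it (coordinates below), so the Rgr distances hold for the RefSeq start only. A match describes these letters and is no evidence of binding.

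Values are FPKM, the authors' fragment counts scaled by gene length and library size, which allow levels to be compared between genes. Column totals lay between 344876 and 366536. Absolute depth is unknown, and relative depth, read from the smallest steps among low values, ran from 0.853 to 1.14 of the mean. Within groups, r between libraries was 0.974 to 0.985 over genes, which are no independent replicates. Il19 itself was listed at 0 in 8 of the 9 libraries and at 0.0406 FPKM in RA WT 1, so its level does not separate the genotypes. Of 4 Y-linked genes, every one was at 0 in OIR KO 1 and RA WT 2. Their sum was 32.9 FPKM in RA WT 3 and lay between 48.1 and 64.4 FPKM in the other libraries. All OIR WT libraries expressed them, while OIR KO and RA WT each held a library without them, so Y-linked expression was not balanced over the groups.

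The pigment epithelium label was checked against 13 markers outside the set, among them the chloride channel gene Best1, the lactate transporter gene Slc16a8, the potassium channel gene Kcnj13 and the melanin genes Tyr, Tyrp1, Dct and Pmel. The others were Ermn, Cdh3, Mlana, Slc45a2, Oca2 and Gpr143. Most of the 13 are melanin genes, which choroid and iris also carry. The listed markers called in OIR WT against RA WT, Krt18 and Serpinf1 (higher) and Efemp1 (lower), were not among them. Of the 13 markers, 11 were above 0 in every library. Oca2 was listed at 0 in RA WT 2 and Gpr143 in OIR WT 3. All were low: Best1 lay between 0.0725 and 0.367 FPKM and Slc16a8 between 1.55 and 4.87 FPKM, whereas the summed level of 14 rod genes lay between 13886 and 18486 FPKM. The summed level of the 13 markers was 26.7, 19.2 and 19.2 FPKM in OIR KO 1, 2 and 3, 10.1, 19.4 and 15.02 FPKM in OIR WT 1, 2 and 3, and 17.6, 15.5 and 46.6 FPKM in RA WT 1, 2 and 3. The sum was lowest in OIR WT 1 and highest in RA WT 3, where Pmel (12.4 FPKM) and Dct (18.2 FPKM) made up most of it. In whole-retina RNA, fewer cells of a type and less RNA per cell cannot be told apart.

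All 7 genes passed the filter on low values, which asked for 0.5 FPKM or more in 3 libraries or more. Ttr was the highest of them, between 27.1 and 90.5 FPKM, and Lrat the lowest, between 0.306 and 0.855 FPKM. Every one of the 7 had a lower mean in OIR WT than in RA WT, and 2 of them, Rgr and Stra6, fell at an adjusted p under 0.05 (limma, Benjamini-Hochberg adjustment over 15678 genes), where 16% of all tested genes were called and 7.92% were called lower in OIR WT. The other 5 did not pass. The median log2 change of the 7 genes was -0.67, beside 0.02 over all tested genes. At an unadjusted p under 0.05 there were 4 lower and 0 higher genes among the 7, where 30.4% of all tested genes passed in either direction. The OIR WT and RA WT libraries did not overlap for 4 of the 7 genes, all lower in OIR WT, as in 17.2% of all tested genes.

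**Figure D1:**
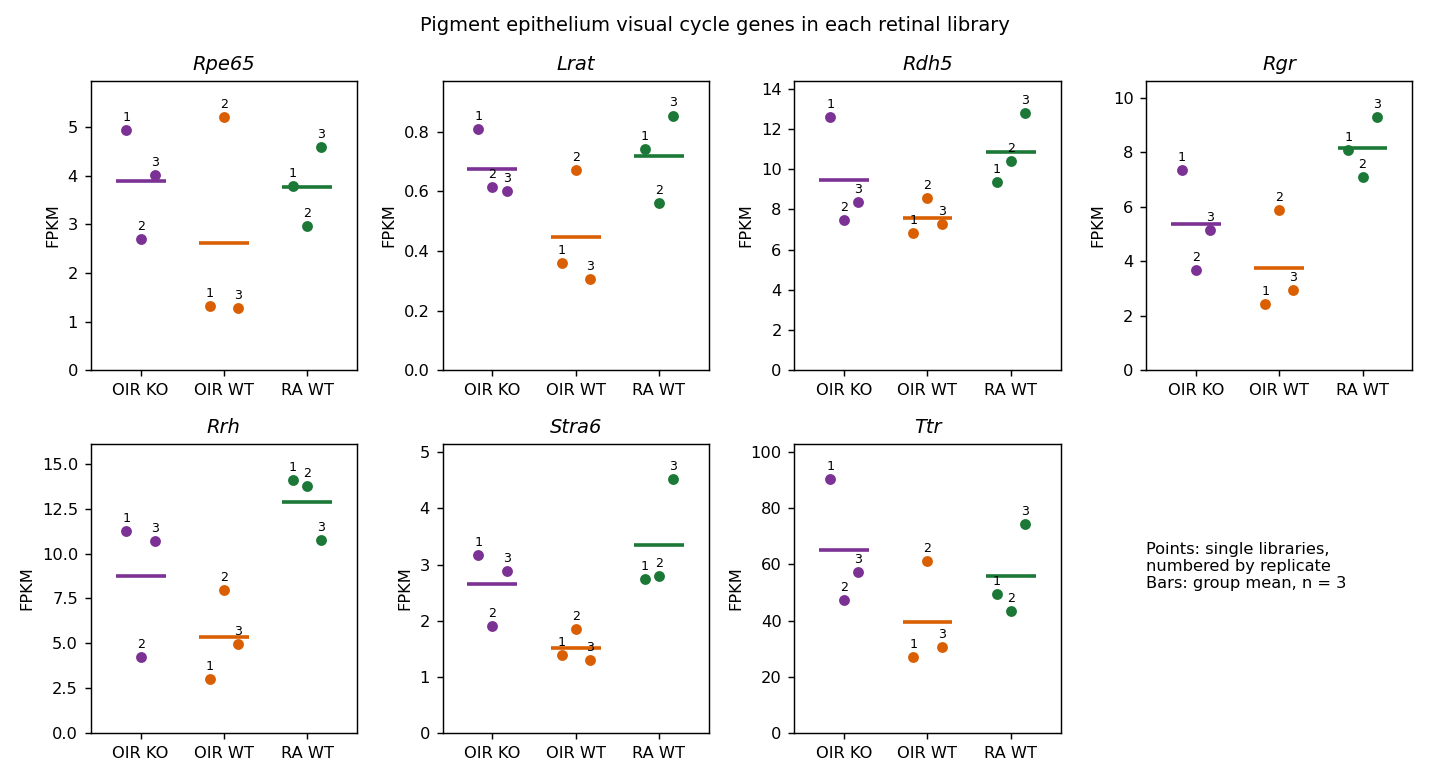
FPKM of each visual cycle gene (vertical axis, from 0) in the single libraries of OIR KO, OIR WT and RA WT, numbered by replicate, with the group mean as a bar (n = 3). OIR WT 2 lies above OIR WT 1 and 3 in every panel, and for Rpe65 it reaches 5.21 FPKM, above all RA WT libraries.

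Rpe65, the isomerase at the centre of the cycle (ENSMUSG00000028174, GRCm38 chromosome 3, 159599175 to 159625321, plus strand), was at 4.93, 2.71 and 4.01 FPKM in OIR KO 1, 2 and 3, 1.33, 5.21 and 1.28 FPKM in OIR WT 1, 2 and 3, and 3.79, 2.96 and 4.58 FPKM in RA WT 1, 2 and 3. OIR WT 1 and 3 were the lowest of the 9 libraries and OIR WT 2 was the highest. Rpe65 averaged 2.61 ± 2.25 FPKM in OIR WT and 3.78 ± 0.811 FPKM in RA WT (SD, n = 3 each), a log2 change of -0.67 (SE 0.43, adjusted p = 0.331). On this scale, log2(FPKM + 0.5), the change of low genes is understated. Without OIR WT 2 the log2 change was -1.23 (SE 0.24, adjusted p = 0.0140), so that library decides whether the difference passes. The standard deviation of Rpe65 among the OIR WT libraries, 0.96 on the log2 scale, was at the 99.3rd percentile of all tested genes, whose median was 0.14.

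Lrat, the esterifying enzyme (ENSMUSG00000028003, chromosome 3, 82892579 to 82903973, minus strand), had the lowest levels of the set. It was at 0.810, 0.615 and 0.602 FPKM in OIR KO 1, 2 and 3, 0.360, 0.671 and 0.306 FPKM in OIR WT 1, 2 and 3, and 0.741, 0.562 and 0.855 FPKM in RA WT 1, 2 and 3. As for Rpe65, OIR WT 1 and 3 were the lowest of all libraries, while OIR WT 2 fell among those of RA WT. The log2 change was -0.38 for OIR WT against RA WT (SE 0.19, adjusted p = 0.200).

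Rdh5, which makes cis retinal (ENSMUSG00000025350, chromosome 10, 128913593 to 128922888, minus strand), was at 12.6, 7.45 and 8.38 FPKM in OIR KO 1, 2 and 3, 6.83, 8.59 and 7.26 FPKM in OIR WT 1, 2 and 3, and 9.38, 10.4 and 12.8 FPKM in RA WT 1, 2 and 3. All OIR WT libraries were below all RA WT libraries, and they lay closer together than for Rpe65, with 1.26 between the highest and the lowest as a ratio against 4.06 for Rpe65. The log2 change was -0.49 (SE 0.19, adjusted p = 0.108), which did not pass.

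The 2 opsin genes had the largest differences of the set between OIR WT and RA WT. Rgr (ENSMUSG00000021804, chromosome 14, 37034909 to 37048964, minus strand) was at 7.35, 3.67 and 5.14 FPKM in OIR KO 1, 2 and 3, 2.42, 5.88 and 2.95 FPKM in OIR WT 1, 2 and 3, and 8.08, 7.09 and 9.31 FPKM in RA WT 1, 2 and 3. All OIR WT libraries were below all RA WT libraries, with OIR WT 2 closest to them. Rgr averaged 3.75 ± 1.86 FPKM in OIR WT and 8.16 ± 1.11 FPKM in RA WT (SD, n = 3 each), and it fell with a log2 change of -1.10 (SE 0.31, adjusted p = 0.0400). The call was lost without any 1 of OIR WT 1, OIR WT 3, RA WT 1, RA WT 2 or RA WT 3 (adjusted p = 0.0779 to 0.132), and it held without OIR WT 2 (log2 -1.44, adjusted p = 0.00900).

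Rrh, the peropsin gene (ENSMUSG00000028012, chromosome 3, 129804408 to 129822587, minus strand), was at 11.3, 4.23 and 10.7 FPKM in OIR KO 1, 2 and 3, 3.03, 7.97 and 4.98 FPKM in OIR WT 1, 2 and 3, and 14.1, 13.8 and 10.8 FPKM in RA WT 1, 2 and 3. The OIR WT and RA WT libraries did not overlap, and OIR KO 2 stood with the low OIR WT libraries while OIR KO 1 and 3 stood near RA WT 3. Rrh averaged 5.33 ± 2.49 FPKM in OIR WT and 12.9 ± 1.84 FPKM in RA WT (SD, n = 3 each). Its log2 change, -1.28, was the largest of the set but did not pass (SE 0.40, adjusted p = 0.0651). It passed without OIR WT 2 (log2 -1.60, adjusted p = 0.0403) and when the spread was taken from these 2 groups alone (adjusted p = 0.0306).

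Of the genes for retinol supply, Stra6, the uptake receptor (ENSMUSG00000032327, chromosome 9, 58063788 to 58153996, plus strand), was at 3.17, 1.90 and 2.89 FPKM in OIR KO 1, 2 and 3, 1.40, 1.85 and 1.31 FPKM in OIR WT 1, 2 and 3, and 2.74, 2.79 and 4.52 FPKM in RA WT 1, 2 and 3. Every OIR WT library was below every library of the other groups. Stra6 averaged 1.52 ± 0.291 FPKM in OIR WT and 3.35 ± 1.01 FPKM in RA WT (SD, n = 3 each), and it fell with a log2 change of -0.91 (SE 0.22, adjusted p = 0.0222). The call was lost without OIR WT 1, OIR WT 3 or RA WT 3 (adjusted p = 0.0709 to 0.0783). With OIR WT 2 left out it held.

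Ttr, the carrier (ENSMUSG00000061808, chromosome 18, 20665280 to 20674321, plus strand), was at 90.5, 47.5 and 57.2 FPKM in OIR KO 1, 2 and 3, 27.1, 61.3 and 30.6 FPKM in OIR WT 1, 2 and 3, and 49.3, 43.5 and 74.5 FPKM in RA WT 1, 2 and 3. OIR WT 1 and 3 were the lowest of the 9 libraries, and OIR WT 2 lay within the range of RA WT. The log2 change was -0.54 for OIR WT against RA WT (SE 0.36, adjusted p = 0.350).

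Of the 7 genes, 3 overlap another annotated gene, and whether reads were counted by strand is unknown here. Rdh5 overlaps Bloc1s1, on the same strand, which was at 29.7 ± 1.05 FPKM in OIR WT and 28.2 ± 1.41 FPKM in RA WT (SD, n = 3 each; adjusted p = 0.619). Stra6 overlaps Ccdc33, on the opposite strand, which did not exceed 0.0630 FPKM in any library, and the gene model Gm16131. Lrat overlaps the antisense gene Rbm46os. The part of these partners in the 3 values was not tested.

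The comparison of OIR KO with OIR WT asks what the loss of IL-19 does within retinopathy. All 7 genes had a higher mean in OIR KO, with a median log2 change of 0.63 beside -0.0027 over all tested genes, but 0 of the 7 passed (limma, adjusted p under 0.05), where 0.134% of all tested genes were called. At an unadjusted p under 0.05, 1 of the 7 was higher, Stra6, and 0 were lower (9.91% of all tested genes in either direction). Stra6 was also the only one whose groups did not overlap (higher in OIR KO, as in 9.73% of all tested genes). It averaged 2.65 ± 0.670 FPKM in OIR KO and 1.52 ± 0.291 FPKM in OIR WT (SD, n = 3 each), a log2 change of 0.63 (SE 0.22, 95% interval 0.14 to 1.13, adjusted p = 0.407). The log2 differences of the other 6 ran from 0.28 for Rdh5 to 0.75 for Ttr, and their 95% intervals included 0. The interval of Rpe65, from -0.29 to 1.67, shows how little these libraries limit the difference for that gene.

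**Figure D2:**
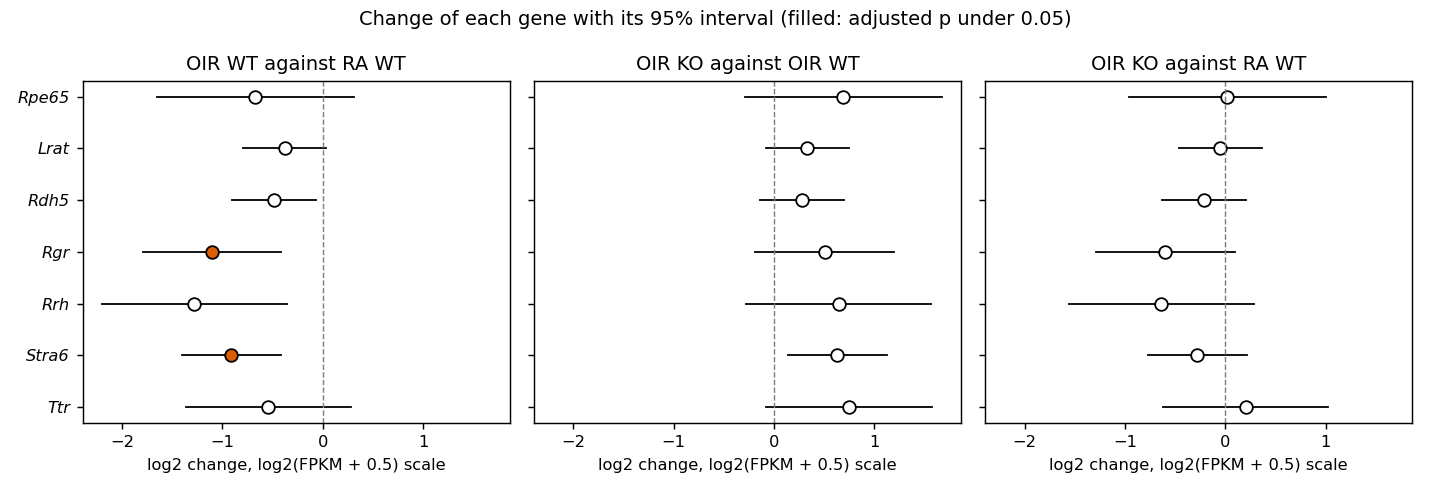
Log2 change of each gene on the log2(FPKM + 0.5) scale (horizontal axis) with its 95% interval, for OIR WT against RA WT, OIR KO against OIR WT and OIR KO against RA WT. Filled points have an adjusted p under 0.05, which are Rgr (-1.10) and Stra6 (-0.91) in OIR WT against RA WT.

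OIR KO against RA WT gave 0 of 7 genes past the threshold (limma; 10.4% of all tested genes called) and 0 at an unadjusted p under 0.05 (27.6% of all tested genes). The median log2 change of the 7 was -0.21, beside 0.02 over all tested genes, with 5 of them below 0 and 2 above. Rrh (log2 -0.64, SE 0.40, adjusted p = 0.348) and Rgr (log2 -0.60, SE 0.31, adjusted p = 0.245) had the lowest values, and Rpe65 (log2 0.02, SE 0.43, adjusted p = 0.984) and Ttr (log2 0.21, SE 0.36, adjusted p = 0.760) lay above 0. Groups overlapped for all 7 genes, where 32.7% of all tested genes did not overlap. The 3 comparisons share libraries: the OIR WT values enter the first and the second, and the RA WT values the first and the third.

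The libraries of a group differed together across the set. Within OIR WT, replicate 2 had the highest value for 7 of the 7 genes, whereas 31.7% of all tested genes were highest there. Within OIR KO, replicate 1 was the highest for 7 of 7 (30% of all tested genes) and replicate 2 the lowest for 6 of 7 (37.2%). Within RA WT, replicate 3 was the highest for 6 of 7 (36.4%), with Rrh as the exception. Several of the genes spread more within OIR WT and within OIR KO than most genes. In OIR WT, beside Rpe65, Rrh, Ttr and Rgr had standard deviations of 0.63, 0.63 and 0.59 on the log2 scale, at the 97.5th, 97.4th and 97th percentile, while Rdh5 (0.16) was at the 57.5th. In OIR KO, 6 of the 7 lay between the 84.5th percentile (Stra6) and the 97.7th (Rrh), and Lrat at the 49.8th. In RA WT, Rpe65, Rgr, Rrh, Lrat and Rdh5 lay between the 54.2nd and the 79.7th percentile, and Stra6 and Ttr at the 88.8th and 91.7th.

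Pigment epithelium markers outside the set did not all move with these libraries. The mean of the 13 markers on the log2(FPKM + 0.5) scale was 0.71, 0.50 and 0.45 in OIR KO 1, 2 and 3, 0.053, 0.55 and 0.24 in OIR WT 1, 2 and 3, and 0.47, 0.41 and 1.06 in RA WT 1, 2 and 3. In this mean OIR WT 1 and 3 were again the lowest, and OIR WT 2 lay within the RA WT range. The summed level of the 18 listed pigment epithelium markers with neither a retinoid nor a melanin role, 5 of which are among the 13, did not follow this order. It ran from 141 to 178 FPKM in OIR KO, with OIR KO 2 the highest, from 129 to 138 FPKM in OIR WT, with OIR WT 3 the highest, and from 105 to 139 FPKM in RA WT. Unlike the mean on the log2 scale, such a sum is weighted towards its highest genes. These were Krt18 (33.1 to 76.3 FPKM over the libraries), Timp3 (19.9 to 31.0 FPKM) and Sulf1 (14.6 to 30.0 FPKM). The sum therefore says little about the low markers of the list. With the mean of the 13 markers as a covariate, 0 of the 7 genes passed in OIR WT against RA WT, where 559 of all genes did. The log2 change was then -0.07 for Rpe65, 0.075 for Ttr, -0.15 for Lrat and -0.21 for Rdh5. It stayed further from 0 for Stra6 (-0.58, adjusted p = 0.150), Rgr (-0.66, adjusted p = 0.220) and Rrh (-1.07, adjusted p = 0.291). The covariate rests mostly on melanin genes and itself differs between the groups.

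Profiles over the 9 libraries were compared between genes. Likeness was measured as the root mean square difference of log2(FPKM + 0.5) after each gene was centred on its own mean, among 13986 other tested genes with a symbol. It favours genes with a like amplitude, so the small changes of Lrat and Rdh5 have many near neighbours. Rpe65 was nearest to Ttr (0.222), then to the keratin gene Krt8 (0.316) and to Rgr (0.328). Ttr was nearest to Krt8 (0.196), then to Rpe65 and to Pon1, a paraoxonase gene (0.234). Stra6 was nearest to Slc16a8 (0.0935), the lactate transporter of pigment epithelium, then to Prkag3 (0.175) and Rassf10 (0.180). Krt8, at 1.08, 0.592 and 0.563 FPKM in OIR KO 1, 2 and 3, 0.233, 0.928 and 0.252 FPKM in OIR WT 1, 2 and 3 and 0.519, 0.394 and 1.40 FPKM in RA WT 1, 2 and 3, had the same low OIR WT 1 and 3 as Rpe65 and Ttr.

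Rrh and Rgr had some, not all, of the listed genes of Müller glia among their near neighbours. Rrh was nearest to Paqr6 (0.242), to the carbonic anhydrase gene Car14, which Müller glia and pigment epithelium carry (0.256) and to Kcne1l (0.259). Rgr ranked 5th, the glutamine synthetase gene Glul 6th (0.301) and Rlbp1 9th (0.315) from Rrh, whereas Rpe65 ranked 293rd. Rgr was nearest to B3galt5 (0.193), Wnt9b (0.219) and Spin2c (0.231), with Glul 4th (0.242), Car14 9th and Rlbp1 10th, and with Stra6 15th, Rrh 24th and Rpe65 83rd. Of the other listed Müller glia genes, Abca8a ranked 14th from Rrh and 56th from Rgr, and Aqp4 ranked 62nd and 131st. The rest of that list ranked further from both, among them Sox9 and Vim, which rose in OIR WT against RA WT. Car14 was at 62.2, 31.5 and 70.7 FPKM in OIR KO 1, 2 and 3, 21.7, 53.3 and 25.0 FPKM in OIR WT 1, 2 and 3, and 56.4, 72.8 and 73.7 FPKM in RA WT 1, 2 and 3. Like Rrh it was low in OIR WT 1, OIR WT 3 and OIR KO 2. Car14 also ranked 6th from Rpe65 (0.336), so it does not separate the opsin genes from Rpe65. Lrat was nearest to Pip5k1b (0.0999), Gstt2 (0.104) and Fam53b (0.110), and Rdh5 to St5 (0.124), Flvcr2 (0.125), a heme and choline transporter family gene, and Lhpp (0.131).

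**Figure D3:**
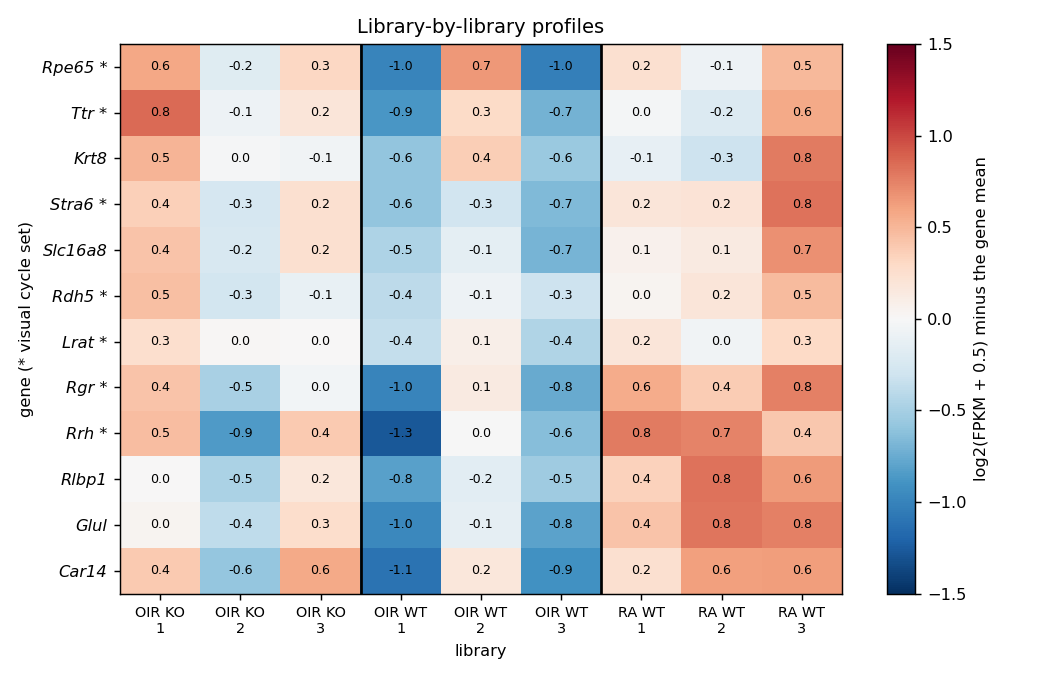
Log2(FPKM + 0.5) of each gene minus its own mean over the 9 libraries (colour and printed number), for the visual cycle genes (starred) and genes near them by profile or of Müller glia. OIR WT 1 and 3 are the lowest libraries for every gene drawn except Rrh, where OIR KO 2 (-0.85) lies below OIR WT 3 (-0.64). OIR KO 2 is also low for Rgr, Car14 and Rlbp1.

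Levels within a library were also set against Rpe65, a choice made after the values were seen and given without a test. The ratio of Rgr to Rpe65 was 1.49, 1.35 and 1.28 in OIR KO 1, 2 and 3, 1.82, 1.13 and 2.30 in OIR WT 1, 2 and 3, and 2.13, 2.40 and 2.03 in RA WT 1, 2 and 3. It was lower in every OIR KO library than in every RA WT library. The ratio of Stra6 to Rpe65 was 0.643 to 0.721 in OIR KO and 0.723 to 0.988 in RA WT, also without overlap. Over all tested genes, 6.4% had a ratio to Rpe65 that was lower in every OIR KO library. The ratios of Lrat, Rdh5, Ttr and Rrh to Rpe65 overlapped between these groups. The ratio of Stra6 to Slc16a8 was 0.800 to 0.845 in OIR KO, 0.726 to 0.843 in OIR WT and 0.888 to 0.928 in RA WT. Every OIR KO and OIR WT library was below every RA WT library in this ratio. The share of all genes with such a ratio was not computed. Slc16a8 had the profile nearest to Stra6 in these same libraries, which narrows the spread of the ratio. The ratios of Rgr and of Rrh to Glul overlapped in all 3 comparisons. That of Rlbp1 to Glul was lower in OIR KO than in OIR WT and otherwise overlapped.

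Of 30 other listed retinoid genes of the retina, 29 matched an entry and 24 were tested. Between OIR WT and RA WT, 4 of these fell (7.92% of all tested genes), with a median log2 change of -0.09. Rlbp1, which encodes the cis-retinal binding protein of pigment epithelium and Müller glia, was at 168, 121 and 190 FPKM in OIR KO 1, 2 and 3, 95.5, 151 and 116 FPKM in OIR WT 1, 2 and 3, and 215, 295 and 263 FPKM in RA WT 1, 2 and 3. All OIR WT libraries were below all RA WT libraries, and Rlbp1 fell with a log2 change of -1.10 (SE 0.21, adjusted p = 0.00912), which held without each library in turn. It did not pass in OIR KO against RA WT (log2 -0.70, SE 0.21, adjusted p = 0.0616).

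The other fallen genes were Bco2, a carotenoid-cleaving enzyme (log2 -0.74, adjusted p = 0.0337), Crabp2, a retinoic acid-binding protein (log2 -0.66, adjusted p = 0.0308), and Opn4, the melanopsin of light-sensitive ganglion cells (log2 -0.76, adjusted p = 0.0453). Each of these 3 calls was lost without at least 4 of the 6 libraries (adjusted p = 0.0520 to 0.126 where lost).

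None of 5 further genes of the cycle passed in OIR WT against RA WT. Abca4, the retinal transporter of outer segment discs, averaged 134 ± 18.1 FPKM in OIR WT and 142 ± 11.6 FPKM in RA WT (log2 -0.08, 95% interval -0.34 to 0.17, adjusted p = 0.661). Rdh12, a photoreceptor retinol dehydrogenase, averaged 282 ± 19.6 and Rdh11 14.9 ± 0.284 FPKM in OIR WT, against 289 ± 8.96 and 15.5 ± 1.31 FPKM in RA WT (adjusted p = 0.816 and 0.751). Rdh8, which reduces all-trans retinal in outer segments, averaged 90.9 ± 3.49 FPKM in OIR WT and 73.1 ± 10.7 FPKM in RA WT (log2 0.32, adjusted p = 0.0695). Rbp3, the retinoid carrier of the space between photoreceptors and pigment epithelium, averaged 753 ± 53.4 FPKM in OIR WT and 554 ± 105 FPKM in RA WT (log2 0.46, adjusted p = 0.0678). The groups did not overlap for Rdh8 and Rbp3, yet neither passed. The share of all tested genes higher in OIR WT without overlap is not given here, so this separation cannot be weighed. Rbp4, the serum retinol carrier that STRA6 binds, did not pass the filter and averaged 0.390 ± 0.0602 FPKM in OIR KO, 0.325 ± 0.136 FPKM in OIR WT and 0.566 ± 0.143 FPKM in RA WT (SD, n = 3 each).

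**Figure D4:**
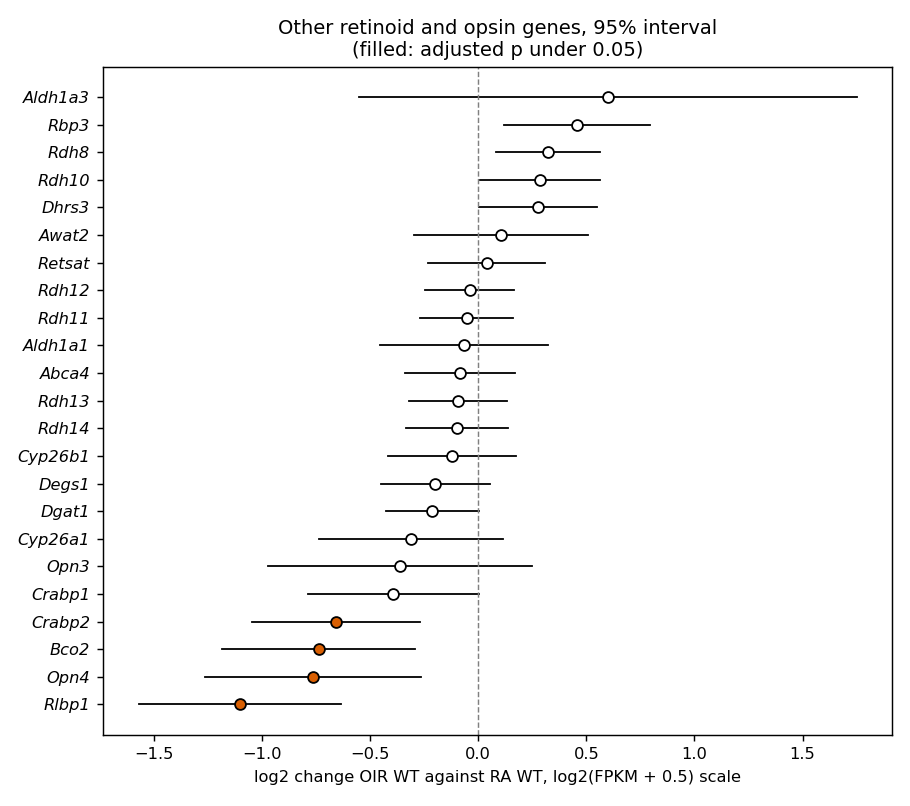
Log2 change of 23 other retinoid and opsin genes tested, OIR WT against RA WT, on the log2(FPKM + 0.5) scale with 95% intervals. Filled points have an adjusted p under 0.05, with Rlbp1 (-1.10) at the bottom.

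Of these 24 genes, 0 passed in OIR KO against OIR WT (limma; 1 at an unadjusted p under 0.05). Against RA WT, 1 rose and 1 fell in OIR KO (4.75% and 5.69% of all tested genes). Rdh10, a retinol dehydrogenase of pigment epithelium and Müller glia, rose to 25.1 ± 3.07 FPKM in OIR KO, against 17.5 ± 2.05 FPKM in RA WT (log2 0.51, SE 0.12, adjusted p = 0.0300). Opn4 fell (log2 -1.08, SE 0.22, adjusted p = 0.0165). The Rdh10 call was lost without OIR KO 1, OIR KO 2, RA WT 1 or RA WT 3, and the Opn4 call without OIR KO 1, OIR KO 2, RA WT 2 or RA WT 3 (adjusted p = 0.0527 to 0.103).

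Markers of tissues and cells near the pigment epithelium were counted in OIR WT against RA WT, where 16% of all tested genes were called and 7.92% were called lower. Of 16 tested pigment epithelium markers with no retinoid role, 2 rose and 1 fell. Of the 16 log2 changes 11 were below 0 and 5 above, with a median of -0.32. Krt18 (log2 0.73) and Serpinf1, which encodes the anti-angiogenic factor PEDF (log2 0.53), rose, and Efemp1 (log2 -0.73) fell. Of 5 tested melanin genes 0 passed by limma (0 at an unadjusted p under 0.05), and all 5 log2 changes were below 0, with a median of -0.48. Of 10 choroid plexus and ciliary epithelium genes, Aqp1 (log2 0.49) rose and Folr1 (-0.99), Enpp2 (-1.60), Optc (-1.23) and Col9a1 (-1.05) fell. Of 5 tested lens genes Bfsp2 fell (log2 -1.30). It passed the filter on low values through RA WT (0.870 to 1.31 FPKM), where it is high, and elsewhere reached 0.5 FPKM in OIR KO 1 alone. In OIR WT it lay between 0.0592 and 0.319 FPKM, near the floor, so its call is no support for a lens change. Of 11 Müller glia genes 2 rose, Sox9 (log2 1.29) and Vim (1.15), and 5 fell, with Kcnj10 (-1.09), Dkk3 (-0.87) and Abca8a (-1.59) at the smallest p. The median log2 change of the Müller glia genes was -0.87. Of 14 rod genes 0 passed by limma (1 at an unadjusted p under 0.05), with a median log2 change of -0.03. Of 10 cone genes Gnb3 rose (log2 1.04) and Arr3 fell (-0.87). Of 5 tested genes of choroid and sclera stroma, Col1a1 (log2 2.44), Col3a1 (1.22) and Pdgfra (0.69) rose. Col1a1 passed the filter on low values only through the OIR libraries, where it is high. In RA WT it lay between 0.208 and 0.354 FPKM, near the floor, so its call is no support for a stromal change. Of the calls named so far in these lists, Krt18, Efemp1, Bfsp2, Sox9, Kcnj10, Dkk3, Abca8a and Col1a1 held without each of the 6 libraries in turn. The others were lost without 2 to 5 of them. Between OIR KO and OIR WT, 0 genes of any of these lists passed by limma. At an unadjusted p under 0.05 by limma, 9.91% of all tested genes passed there in either direction. Of 11 Müller glia genes 7 did, 6 higher and 1 lower in OIR KO, with a median log2 change of 0.41. Of 16 pigment epithelium markers 5 did, with 5 higher and 0 lower in OIR KO, and the median was 0.23. Between OIR KO and RA WT, Krt18 (log2 0.96), Aqp1 (0.59), Col1a1 (1.88) and Col3a1 (1.23) rose and the Müller glia genes Kcnj10 (-0.61), Dkk3 (-0.46) and Abca8a (-0.96) fell. Of these 7 calls, Krt18 and Col1a1 held without each library in turn, and the limit given for Col1a1 applies here too.

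These lists also differed in level between the libraries. Summed over the 11 Müller glia genes, the level ran from 2124 to 2244 FPKM in OIR KO, from 1598 to 1915 FPKM in OIR WT and from 2258 to 2993 FPKM in RA WT. The lens genes summed to between 2.92 and 23.2 FPKM in OIR KO, 1.13 and 2.16 FPKM in OIR WT and 4.10 and 35.2 FPKM in RA WT, with OIR KO 2 and RA WT 1 at the top. The part of Müller glia and lens content in the changes of Rgr and Stra6 was not tested.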

How the data were processed

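Retinas were flash frozen, and Trizol RNA went into NEBNext Ultra libraries, per the labels' protocols. The alignment tool was HISAT2 and the build GRCm38, per the submitters' processing notes, with quantifier and annotation not stated there. Expression was deposited by the authors as FPKM, 1 column per library in 1 table. Values were taken as log2(FPKM + 0.5) without further scaling. Genes with at least 0.5 FPKM in at least 3 of the 9 libraries (15678) entered limma 3.58.1 in R 4.3.3, with 1 mean per group, the trend and robust options, two-sided tests and Benjamini-Hochberg adjustment. The same script was tested on simulated data. Reads could not be recovered: 27.4 to 30.1% of low values lay within 0.02 of a whole step, so no count model was run. Of the symbols, 19 were repeated, of which the highest entry by mean was used under the name. Coordinates are from GENCODE M21, promoters from RefSeq, both GRCm38. The genes and lists were chosen with earlier results of these data known; named genes are the 7 members, listed genes past the threshold (the 3 of smallest p per direction where over 6 passed), 9 fixed retinoid genes and the 3 nearest profiles per member. Same-numbered libraries were not paired. Of the listed retinoid genes, 1 is not reported here.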

Additional observations from a re-analysis of the deposited data

How the results depend on the processing

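With 3 libraries a group and unknown depth, the calls of Rgr and Stra6 depend on the choices made, while their direction held under all 15 alternatives, with log2 changes from -1.44 to -0.66 for Rgr and from -1.07 to -0.58 for Stra6. In OIR WT against RA WT the number of the 7 genes called was 2 with a pseudocount of 0.1 or 1, with median-ratio scaling or without the trend, and 3 with the spread taken from the 2 groups alone. It was 1 without the filter on low values and 0 with the pigment epithelium marker covariate or with a covariate of Y-linked genes, and it ran from 0 to 4 with 1 library left out. All genes called numbered 2503, against 559 with the marker covariate, 1581 with the Y-linked covariate and 1031 to 2166 with 1 library left out. In OIR KO against OIR WT 21 genes were called, against 13 without the trend, 10 with the marker covariate and 11 to 42 with 1 library left out. In OIR KO against RA WT 1636 were called, against 709 to 1791 with 1 library left out. The cause of these shifts was not tested. None of the 7 genes passed in either knockout comparison under any alternative run.

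The replicate numbers did not pair the libraries: deviations of same-numbered libraries correlated between -0.353 and 0.134, and 0, 0 and 2 of 6 libraries correlated best with their own number in the 3 pairs of groups. With the replicate block 1692 genes and 1 of the 7 (Stra6) were called in OIR WT against RA WT, 8 genes in OIR KO against OIR WT and 1081 in OIR KO against RA WT.

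Signs of the 7 genes and the 9 fixed retinoid genes changed in these cases. In OIR WT against RA WT the marker covariate gave log2 changes of 0.075 for Ttr and 0.049 for Rdh12. In OIR KO against OIR WT it gave -0.042 for Rdh8 and -0.037 for Abca4, and leaving out 1 library gave -0.011 to 0.043 for Rdh8 and -0.040 to 0.13 for Abca4. In OIR KO against RA WT it gave 0.0099 for Lrat, and leaving out 1 library gave -0.15 to 0.23 for Rpe65, -0.058 to 0.43 for Ttr, -0.027 to 0.095 for Rdh12 and -0.15 to 0.030 for Lrat.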

Other observations

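Wnt9b, a Wnt ligand gene near Rgr by profile, was at 1.19, 0.587 and 0.790 FPKM in OIR KO 1, 2 and 3, 0.376, 0.709 and 0.544 FPKM in OIR WT 1, 2 and 3, and 1.57, 1.62 and 1.63 FPKM in RA WT 1, 2 and 3. Paqr6, the nearest gene to Rrh, was at 1.49, 0.599 and 1.70 FPKM in OIR KO 1, 2 and 3, 0.156, 1.00 and 0.241 FPKM in OIR WT 1, 2 and 3, and 1.44, 1.83 and 1.66 FPKM in RA WT 1, 2 and 3. OIR WT 1 and 3 were the lowest, and OIR KO 2 lay between them and OIR WT 2.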
